A study of Mus musculus with 24 samples.

Results

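The 9 genes described here encode the protein chain by which a mouse rod photoreceptor turns an activated visual pigment into a change of membrane current. They are Gnat1, Gnb1 and Gngt1 (the alpha, beta and gamma subunits of rod transducin), Pde6a, Pde6b and Pde6g (the 2 catalytic subunits and the inhibitory subunit of the rod cGMP phosphodiesterase), Cnga1 and Cngb1 (the subunits of the rod cGMP-gated channel) and Sag (rod arrestin). They were chosen by symbol from this known pathway and not by a cut on their measured values, though earlier results of these data were known. All 9 are among the 45594 genes of the deposited table. The material was whole retina of C57/Bl6N mice at 12 ages, 4 embryonic (E11, E12, E14, E16) and 8 postnatal (P0, P2, P4 and P6, then P10, P14, P21 and P28), with 2 libraries of polyadenylated RNA per age and 24 in all. No treatment or mutation is named for any age, so each age is set against the earlier one. The sources used here do not say whether the 2 libraries of an age came from separate animals or pools, so the p-values measure only the spread between these samples, which may be technical.

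In the dark a rod holds its cGMP-gated channels partly open, and current flows into the outer segment. Light-activated pigment makes the transducin alpha subunit exchange GDP for GTP and leave the beta-gamma pair. The alpha subunit then lifts the inhibitory gamma subunit off the phosphodiesterase, cGMP is broken down, and the channels close. Arrestin caps the phosphorylated pigment and ends the signal. Rods are the most common cell type of the mature mouse retina. In mice they are born around birth and form outer segments later, before and around eye opening.

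On GRCm38, 4 of the genes lie at chr9:107674474-107679712 (Gnat1, minus strand), chr4:155491361-155559269 (Gnb1, plus), chr6:3993792-3997436 (Gngt1, plus) and chr5:108388391-108432397 (Pde6b, plus). Others lie at chr11:120447605-120453500 (Pde6g, minus), chr5:72603696-72644275 (Cnga1, minus), chr8:95239045-95306585 (Cngb1, minus) and chr1:87803680-87845158 (Sag, plus). Library totals ran from 24567532 to 35898879 estimated counts. The summed lens markers (Cryaa, Cryba1, Cryge, Crybb3, Mip and Lim2) were uneven before birth: 3209 and 20.99 CPM (counts scaled per library, the unit of all levels below) in the E11 libraries, 224.5 and 3071 CPM in the E12 libraries, and 61.3 and 2291 CPM in the E14 libraries. From E16 on they stayed between 0.963 and 90.6 CPM. Markers of red blood cells summed to between 2916 and 5897 CPM at E11. Of the rod markers, Nrl was at 0 in both E11 libraries, while Nr2e3, Prdm1 and Crx had E11 means of 0.0343, 2.19 and 12.7 CPM. How these other tissues bear on the embryonic values below was not tested.

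The promoters of 6 of the 9 genes are in the RefSeq table used here (GRCm38.p6): Gnb1, Gngt1, Pde6b, Cnga1, Cngb1 and Sag. The 250 bases before each start were searched on both strands for TAATCC, letters bound by the photoreceptor homeodomain factor Crx, and for TGCTGA, part of the site bound by the rod factor Nrl. The motifs do not overlap each other in these promoters. TAATCC was found in 4 of the 6, those of Gngt1, Cnga1, Cngb1 and Sag, against 6.25% of 32851 promoter windows of the same length. TGCTGA was found in 2 of the 6, those of Pde6b and Sag, against 5282 of the same 32851 windows. A match of letters is a description and not a measured binding site. The 150 bases before the start are shown for the 4 genes where they lie outside the gene span given above. For Gngt1 and Cnga1 the start used lies inside that span, so their bases are not shown. Capitals mark the motif matches, and GGATTA is TAATCC read on the other strand. The second motif of Sag lies 187 to 182 bases before the start, outside the stretch shown. Cngb1 holds TAATCC at 58 and at 25 bases before its start.
Sag, chr1:87803530-87803679, plus strand: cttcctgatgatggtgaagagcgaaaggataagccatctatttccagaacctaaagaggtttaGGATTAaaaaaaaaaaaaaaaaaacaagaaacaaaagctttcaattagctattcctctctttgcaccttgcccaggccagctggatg
Cngb1, chr8:95306586-95306735, minus strand: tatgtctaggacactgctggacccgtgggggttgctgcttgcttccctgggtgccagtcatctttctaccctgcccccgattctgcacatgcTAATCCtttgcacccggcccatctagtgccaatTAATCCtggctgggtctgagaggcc
Pde6b, chr5:108388223-108388372, plus strand: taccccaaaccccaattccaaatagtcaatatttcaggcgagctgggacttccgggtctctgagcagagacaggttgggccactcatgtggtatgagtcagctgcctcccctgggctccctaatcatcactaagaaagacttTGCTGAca
Gnb1, chr4:155491211-155491360, plus strand: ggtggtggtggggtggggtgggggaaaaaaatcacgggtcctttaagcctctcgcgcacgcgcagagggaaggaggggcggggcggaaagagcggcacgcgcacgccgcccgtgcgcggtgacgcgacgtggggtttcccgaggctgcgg

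All 9 genes were low or flat before birth and high in the mature retina, but they did not climb together. Gnb1 was abundant at every age, 7 genes made most of their climb between E16 and P6 on the log2 scale, and Gnat1 made most of its climb after P6. In edgeR's quasi-likelihood test over the 12 ages all 9 were called, with a call meaning a Benjamini-Hochberg adjusted p under 0.05 over all 21858 genes tested and a change of at least 2-fold. That share has little weight, because 77.3% of all genes tested were called in the same test. In bulk tissue, fewer rods and less RNA per rod cannot be told apart, so every value below is a share of the RNA of the whole retina. All 9 genes passed the filter on low counts, which for most of them was met through the postnatal ages.

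**Figure D1:**
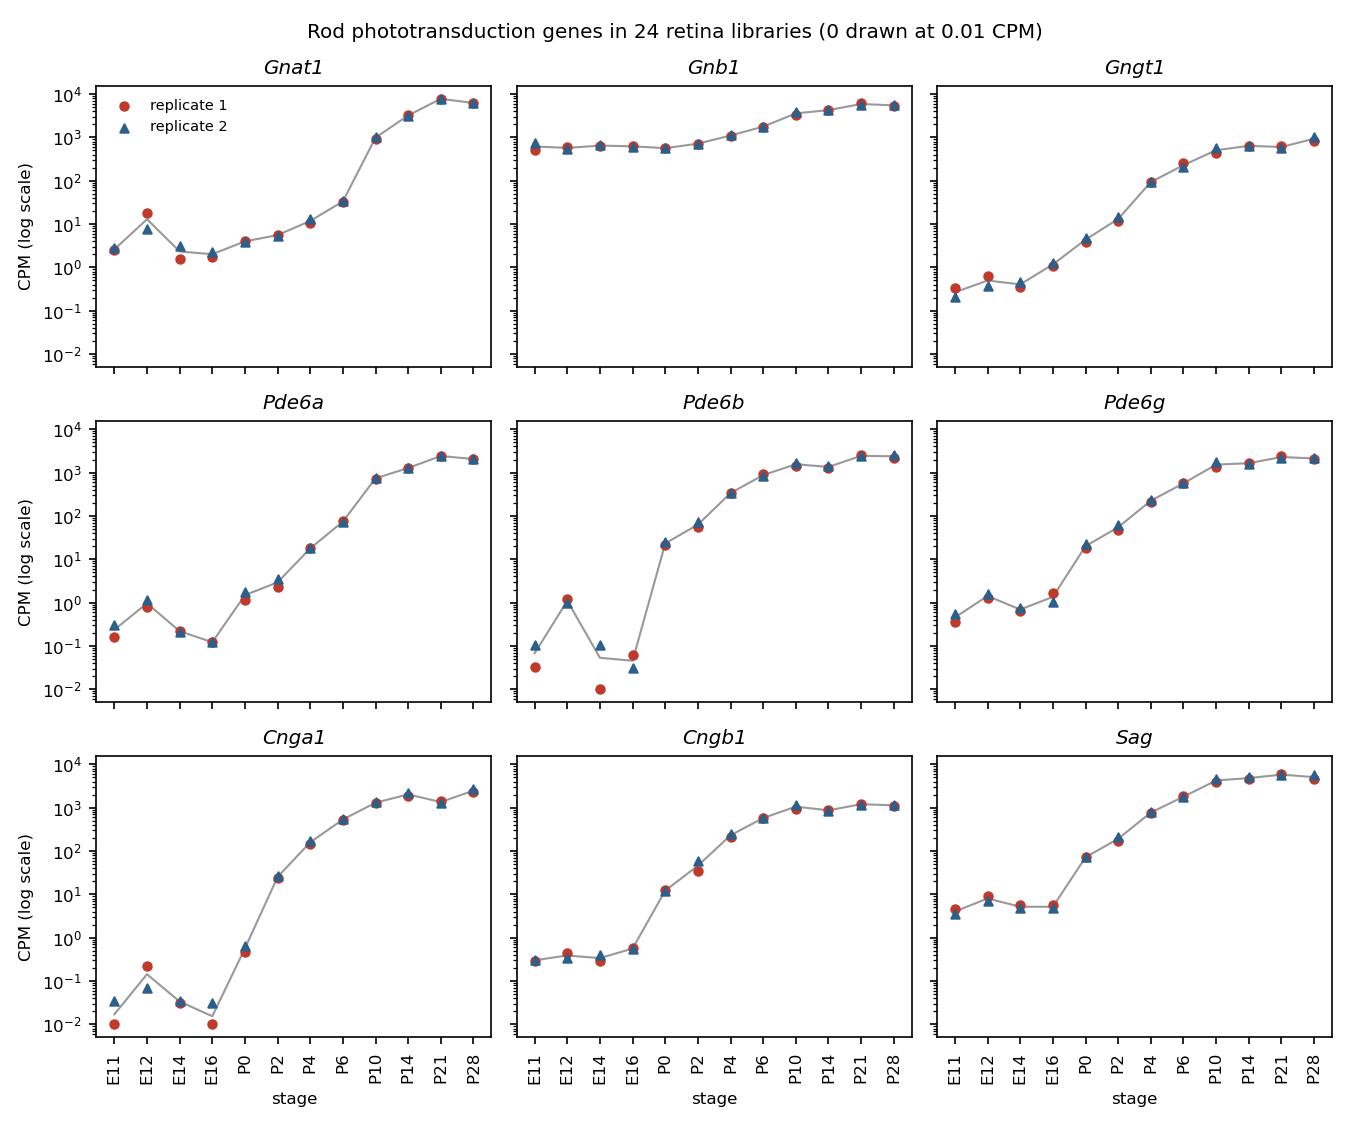
CPM of each gene (log axis) in each of the 24 libraries against age, with 1 panel per gene, circles and triangles for the 2 replicates and a line through the age means. A value of 0 is drawn at 0.01 CPM and the ages are evenly spaced. Gnb1 stays between 501 and 733 CPM at E11 and climbs late, while the other 8 genes start below 5 CPM at E11.

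Gnat1, the subunit that carries the light signal to the phosphodiesterase, was the furthest below its later level at P6. Its replicates had 2.46 and 2.74 CPM at E11, 18.2 and 7.70 CPM at E12, 1.53 and 3.12 CPM at E14 and 1.71 and 2.32 CPM at E16. After birth they had 4.03 and 3.94 CPM at P0, 5.70 and 5.45 CPM at P2, 10.6 and 13.0 CPM at P4 and 32.8 and 33.8 CPM at P6. From P10 on the values were 937 and 1036 CPM at P10, 3302 and 3122 CPM at P14, 7778 and 7725 CPM at P21 and 6071 and 6373 CPM at P28. At P6 Gnat1 thus stood at 0.43% of its highest age mean, the lowest share of the 9 genes. The step of P10 vs P6 alone was a 29.6-fold rise (log2 change 4.89 ± 0.30 SE, adjusted p = 6e-09, edgeR).

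Gnb1 encodes a beta subunit that many G proteins outside rods share, and it had a different course. Its 2 libraries had 630 and 614 CPM at E16, 1779 and 1761 CPM at P6 and 5378 and 5581 CPM at P28. The P6 values lay above both E16 values, and the P28 values lay above both P6 values. Its range over the ages was the smallest of the 9 genes, 3.38 on the log2 scale, against a median of 2.21 over all genes tested. Other beta subunit genes took different courses. At P28 vs P6 Gnb2 fell by 1.995 on the log2 scale (adjusted p = 1.19e-08, edgeR) and Gnb4 fell by 1.79 (adjusted p = 1.21e-07). Gnb5, the partner of Rgs9, rose by 2.44 (adjusted p = 1.18e-10), and Gnb3, the cone counterpart, was not called, at -0.37.

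Gngt1, the gamma subunit that anchors rod transducin to the membrane, was the only one of the 9 genes called higher at E16 vs E14, where 5.47% of all genes tested were. It had 1.05 and 1.30 CPM at E16, against 0.351 and 0.462 CPM at E14 (log2 change 1.53 ± 0.33 SE, adjusted p = 0.00368). Gngt1 then had 3.84 and 4.89 CPM at P0, 91.4 and 94.9 CPM at P4, 251 and 207 CPM at P6 and 830 and 1036 CPM at P28. With Cnga1 it was 1 of 2 genes whose highest age mean was P28. The other 7 had theirs at P21.

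The phosphodiesterase genes did not rise in step. Pde6b, a catalytic subunit whose mutation causes rod loss in the rd1 mouse, had 21.7 and 24.62 CPM at P0, which is 1464 counts, against 0.0602 and 0.0309 CPM at E16, which is 3 counts in both libraries together. The P0 libraries thus held 506 times the E16 level, with a 95% interval of 173 to 2460 that covers counting error only. Pde6b had 926 and 820 CPM at P6 and 2203 and 2545 CPM at P28. Pde6a, the other catalytic subunit, lagged behind: it had 1.17 and 1.80 CPM at P0, 76.7 and 71.0 CPM at P6, and 2047 and 2055 CPM at P28. At P6 Pde6b was at 36% of its highest age mean, and Pde6a was at 3.06%. Pde6g, the inhibitory subunit, followed Pde6b more closely: it had 18.1 and 22.0 CPM at P0, 563 and 564 CPM at P6 and 2023 and 2207 CPM at P28.

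The channel subunits began at different ages. Cngb1 already had 12.5 and 12.0 CPM at P0, against 0.572 and 0.557 CPM at E16 (log2 change 4.43 ± 0.25 SE, adjusted p = 3.87e-09). Cnga1, the subunit that can form a channel by itself, had 0.476 and 0.662 CPM at P0, against 0 and 0.0309 CPM at E16, and was the gene with the largest step of P2 vs P0. It had 23.4 and 27.3 CPM at P2, against 0.476 and 0.662 CPM at P0 (log2 change 5.47 ± 0.21 SE, adjusted p = 1.22e-10). At P6 Cngb1 was nearest of all to its highest age mean, at 48%, and Cnga1 was at 21.5%. Late in the series Cnga1 had 1883 and 2175 CPM at P14, 1393 and 1310 CPM at P21 and 2324 and 2648 CPM at P28. Its P21 values were the lowest of the 3 ages in both libraries, but neither late step reached 2-fold, and with summed transcript counts the change at P21 vs P14 was 0.071 in place of -0.59.

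Sag, the rod arrestin, rose around birth. It had 72.0 and 71.7 CPM at P0, against 5.66 and 4.73 CPM at E16 (log2 change 3.79 ± 0.17 SE, adjusted p = 2.75e-10). It had 1815 and 1776 CPM at P6 and 4606 and 5552 CPM at P28. Sag also had 3.46 to 8.99 CPM in the E11 to E14 libraries, and the transcripts behind those counts are described below.

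**Figure D2:**
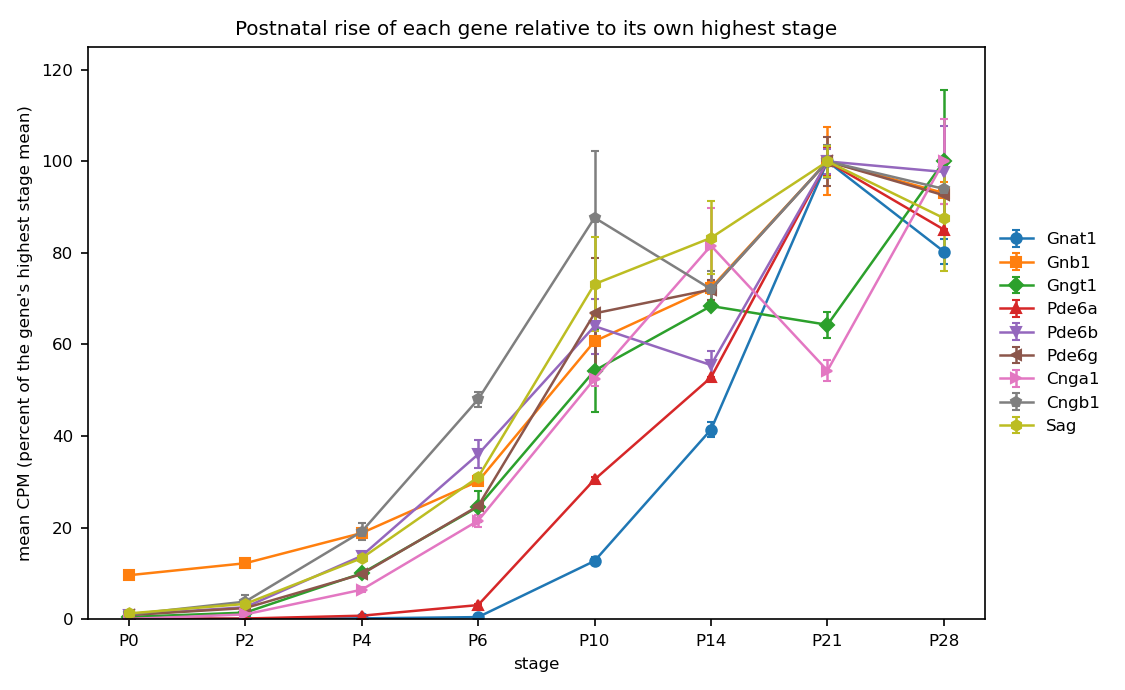
Mean CPM of each gene from P0 to P28 as a percent of that gene's highest age mean, with error bars of 1 SD over 2 libraries and ages evenly spaced. At P6 the genes spread over 0.43% (Gnat1) to 48% (Cngb1), and at P10 over 12.7% (Gnat1) to 87.7% (Cngb1).

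The windows E16 vs E11, P6 vs E16 and P28 vs P6 were compared across all genes. In the embryonic window 2 of the 9 genes rose, Gngt1 and Pde6g, where 13.6% of all genes tested were called higher. Gngt1 was 4.33-fold higher at E16 than at E11 (adjusted p = 0.000126, edgeR), and Pde6g was 2.97-fold higher (adjusted p = 0.000486), with 1.68 and 1.02 CPM at E16 against 0.361 and 0.549 CPM at E11. With summed transcript counts in place of the deposited gene counts, the call of Pde6g ended at a log2 change of 0.88. None of the 9 was called lower by edgeR or DESeq2, and 0 had an unadjusted p under 0.05 in that direction.

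In the perinatal window all 9 genes rose, where 13.2% of all genes tested were called higher at P6 than at E16. The median log2 change of the 9 was 8.70, against 0.01 over all genes tested. Gnb1 had the smallest rise, 2.85-fold (log2 1.51 ± 0.12 SE, adjusted p = 2.5e-08). Gnat1 followed at 16.5-fold, Gngt1 at 194-fold, Sag at 345-fold, Pde6g at 414-fold, Pde6a at 586-fold and Cngb1 at 1020-fold. For Pde6b and Cnga1, with 3 and 1 counts at E16, the ratio of counts was 19100 (95% counting interval 6530 to 92500) and 35000 (6290 to 1380000). Summed transcript counts kept all 9 calls but moved several sizes by over 1.5 times, giving log2 changes of 5.55 for Gnat1, 10.11 for Pde6a, 7.87 for Pde6g, 8.97 for Cngb1 and 7.70 for Sag.

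In the late window 8 of the 9 genes were called, all 8 of them higher at P28 than at P6, where 24.7% of all genes tested were called in either direction. The median log2 change was 1.91, against 0.04 over all genes tested. Gnat1 rose 187-fold (log2 7.55 ± 0.33 SE, adjusted p = 1.89e-11) and Pde6a 27.8-fold (log2 4.795 ± 0.16 SE, adjusted p = 6.55e-13). The other 6 rose by 2.72-fold (Pde6b) to 4.66-fold (Cnga1). Cngb1 had 1083 and 1184 CPM at P28, against 593 and 566 CPM at P6, a log2 change of 0.97 ± 0.16 SE (adjusted p = 0.000101) that was just short of 2-fold. It passed with summed transcript counts, at a log2 change of 1.496, and without the first P28 library, at 1.03.

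Between neighbouring ages the rises fell in runs. At P0 vs E16 7 of the 9 rose (4.75% of all genes tested), at P2 vs P0 6 (3.02%), at P4 vs P2 8 (3.97%), at P6 vs P4 8 (1.08%) and at P10 vs P6 7 (4.59%). From P10 on, Gnat1 was the only one of the 9 called higher: at P14 vs P10 by 3.26-fold (3.45% of all genes called) and at P21 vs P14 by 2.41-fold (4.31% called). Others passed on adjusted p alone. At P14 vs P10 these were Pde6a (1.73-fold, adjusted p = 7e-04, edgeR) and Cnga1 (1.56-fold, 0.00391). At P21 vs P14 Gnb1, Pde6a, Pde6b, Pde6g and Cngb1 rose by 1.38-fold (Gnb1) to 1.89-fold (Pde6a, adjusted p = 9.78e-05, edgeR). Cnga1 was 1.5-fold lower there (adjusted p = 0.00418). At P28 vs P21 none was called by edgeR or DESeq2, where 0.888% of all genes tested were called. There 2 of the 9, Gngt1 and Cnga1, passed on adjusted p (0.0239 and 0.00274, edgeR). Their log2 changes, 0.64 and 0.88, were short of 2-fold. A test against a 2-fold change, which asks more than a measured 2-fold change, left 2 of the 9 at each of P2 vs P0, P6 vs P4 and P10 vs P6, and none at P14 vs P10 and P21 vs P14. Single libraries or the kind of count decided some steps close to 2-fold. Gnat1 at P4 vs P2 was no longer called without the second P2 library (adjusted p = 0.0505) or the second P4 library (0.0585). At P10 vs P6, Gnb1 and Gngt1 fell short of 2-fold without the second P10 library (log2 0.91 and 0.96), as did Gnb1 with summed transcript counts (0.98), and Cngb1 passed it without the first (1.03). Pde6a at P2 vs P0, short of 2-fold at a log2 change of 0.99, passed without the second P0 library (1.33) or the first P2 library (1.24) and with summed transcript counts (1.25). Pde6g at E16 vs E14 passed without the second E16 library (1.28) and with library size alone (1.03). Gnat1 at P0 vs E16 passed with library size alone (1.04) and with summed transcript counts (1.16), which also called it at P2 vs P0 (1.13).

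**Figure D3:**
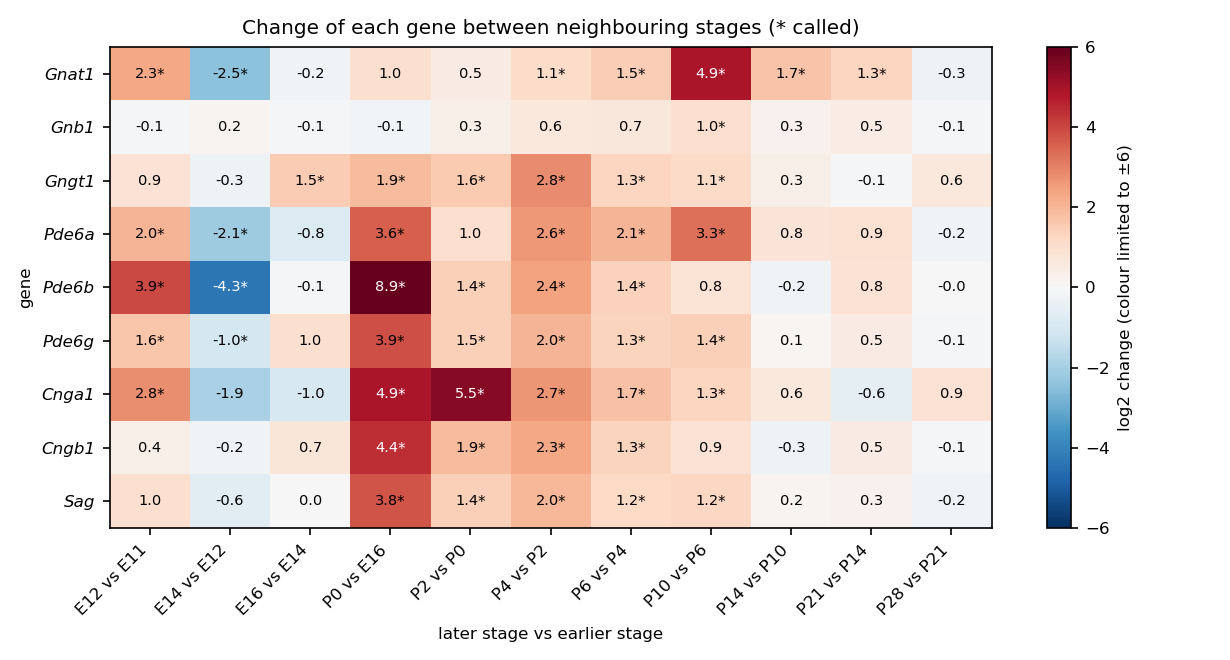
Log2 change of each gene (rows) between neighbouring ages (columns, later age vs earlier age), with colour limited to ±6 and an asterisk for a call. The largest step is P0 vs E16 for Pde6b, P2 vs P0 for Cnga1 and P10 vs P6 for Gnat1.

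The E12 libraries stood above both neighbouring ages for several of these genes. At E12 vs E11 5 of the 9 were called higher (4.08% of all genes tested), and at E14 vs E12 4 were called lower (3.38%). Pde6b had 1.21 and 0.984 CPM at E12, against 0.0328 and 0.103 CPM at E11, and 0 and 0.107 CPM at E14. The other called genes at E12 vs E11 were Gnat1, Pde6a, Pde6g and Cnga1. Levels at E12 were small, between 0.00579% (Cnga1) and 0.167% (Gnat1) of the highest age mean for the 8 genes other than Gnb1. Fitted on the libraries of E11 and E12 alone, Gnat1, Pde6a, Pde6b and Pde6g kept log2 changes of 2.36, 2.06, 3.99 and 1.69 but none was called (adjusted p = 0.174 to 0.203, edgeR). In that fit 6 genes of all those tested were called higher, against 892 in the fit of all 24 libraries, so calls were lost far beyond these genes. Replicates differed most at E11 (chi-square per degree of freedom 64.2) and then at E12 (28.7), against 9.72 to 22.9 at the other ages. The fit of all 24 libraries shares 1 estimate of the spread over all ages, and the calls at E12 vs E11 rest on it. Cnga1 had 8 counts at E12 and 1 at E11, and its call ended without any 1 of 21 libraries, including both of E11 (adjusted p = 0.229 and 0.0822) and the first of E12 (0.489). Sag, 1.99-fold higher at E12 than at E11, passed 2-fold without the first E11 library or the second E12 library (log2 1.21 and 1.14) and with library size alone (1.08). The fall of Pde6g at E14 vs E12 ended without the second E12 library (adjusted p = 0.123) or the first E14 library (0.107), and with summed transcript counts it was -0.47 (0.231). The rise of Pde6g at E12 vs E11 was 0.99 with summed transcript counts, short of 2-fold.

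Of the 11 listed genes of recovery and calcium feedback, 3 were called higher at E12 vs E11 (4.08% of all genes tested), with a list median log2 change of 0.02. They were Rcvrn, Slc24a1 and Pdc, named after their values were seen. Rcvrn, the calcium sensor recoverin, had 32 counts in the E12 libraries, against 1 at E11 and 4 at E14 (adjusted p = 0.000395 and 0.000972, edgeR). Slc24a1, the rod sodium-calcium exchanger, had 38 counts at E12, against 2 at E11 and 9 at E14 (adjusted p = 5.87e-06 and 0.000129). Pdc did not fall after E12: it had 4.18 CPM at E14, against 1.26 CPM at E12 (age means, log2 change 1.74, adjusted p = 8.16e-05, edgeR). Others of the list had values below 0 that were not called, among them Gucy2e at -0.91 and Rgs9bp at -0.83. Of the listed rod markers, Nrl and Nr2e3 were near 0 in the same libraries, with 7 and 6 counts at E12. Prdm1 had 563 counts at E12, against 130 at E11, and Crx had 536, against 751 at E11. The lens markers were at 224.5 and 3071 CPM in the same 2 libraries, and E11 and E12 were the ages with the smaller RNA input. The part of lens RNA or of the input in these values was not tested.

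Genes of the pathway were compared in pairs by their log2 ratio of CPM within each library, which removes library size. The pairs of Gnat1 with Pde6b and of Sag with Gnat1 join different proteins, and the other pairs are subunits of 1 complex. The 6 libraries of P14, P21 and P28 were set against the 6 of P4, P6 and P10 in an exact two-sided permutation test, with p adjusted over 7 pairs. A ratio of CPM shows whether 2 genes changed alike and not how many molecules of each were present. Gnat1 gained on its partner Gnb1: the log2 ratio was 0.06 ± 0.38 at P14 to P28, against -4.71 ± 2.24 at P4 to P10 (SD, 6 libraries each), and the ranges did not overlap (-0.47 to 0.47 against -6.69 to -1.83). The difference was 4.77 (adjusted p = 0.00303, exact test). Gnat1 also gained on Gngt1 (difference 4.52) and on Pde6b (4.84), and Sag lost against Gnat1 (-4.67). The groups did not overlap for any of these 3, each at p = 0.00216 in the exact permutation test, the smallest that 6 libraries against 6 can give.

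Within the phosphodiesterase, Pde6a gained on Pde6b. Their log2 ratio was -0.10 ± 0.12 at P14 to P28, against -2.96 ± 1.49 at P4 to P10 (SD, 6 libraries each; difference 2.86, adjusted p = 0.00303, exact permutation test). Pde6g against Pde6b changed far less, by 0.43 (adjusted p = 0.026), and its groups overlapped. The channel pair Cnga1 and Cngb1 shifted toward Cnga1 by 0.95 (adjusted p = 0.0152), also with overlap. Both libraries of an age stood close together, so the 6 libraries of a group are 3 ages measured 2 times. With age means as the units, 3 against 3 cannot give a p under 0.1, and the adjusted p was 0.14 to 0.3 over the 7 pairs. Leaving out any 1 of the 4 libraries of P4 and P6 or either of P14 ended the call of Pde6g against Pde6b (adjusted p = 0.0519).

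Each rod gene was also set against its cone counterpart at P14 to P28 and at P0 to P4, with p adjusted over 9 pairs. In 8 of 9 pairs the rod gene gained, among them Gnb1 over Gnb3, though Gnb1 is shared by G proteins outside rods. Gnat1 over Gnat2, the cone transducin alpha subunit, had a log2 ratio of 5.05 ± 0.22 at P14 to P28, against -2.40 ± 0.51 at P0 to P4 (SD, 6 libraries each; difference 7.45, adjusted p = 0.00278, exact permutation test). The differences were 6.996 for Cnga1 over Cnga3, 6.97 for Gngt1 over Gngt2, 5.92 for Pde6a over Pde6c, 4.92 for Cngb1 over Cngb3, 2.33 for Pde6g over Pde6h and 2.30 for Gnb1 over Gnb3. Pde6b over Pde6c gained 1.83 (adjusted p = 0.00487) with ranges that overlapped, 3.45 to 4.22 at P14 to P28 against -0.15 to 3.47 at P0 to P4. Sag over Arr3, the cone arrestin, was 4.74 ± 1.26 at P14 to P28, against 5.51 ± 0.24 at P0 to P4 (difference -0.78, p = 0.165, exact permutation test). Without either library of P14 this difference was -1.09 or -1.11 and passed (adjusted p = 0.0303). The late mean joins unlike ages. The P14 libraries, at 6.33 and 6.39, lay above the whole range of P0 to P4, 5.11 to 5.85. Those of P21 (4.08 and 4.03) and P28 (3.81 and 3.78) lay below it. Arr3 rose 5.96-fold at P21 vs P14 (adjusted p = 9.33e-08, edgeR). With age means as the units none of the 9 pairs passed, 0.113 being the lowest adjusted p.

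**Figure D4:**
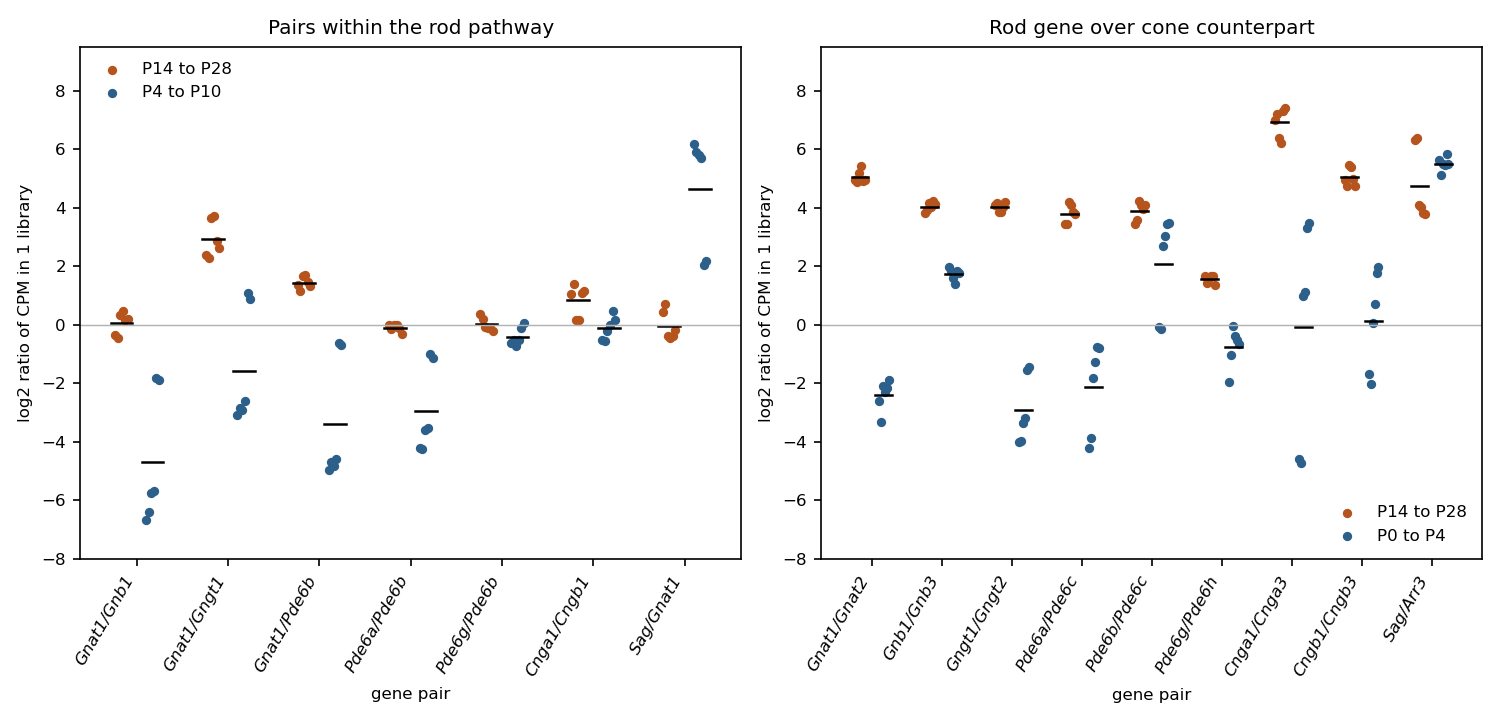
Log2 ratio of CPM of 2 genes in each library, with 1 point per library and a bar at the group mean, for 7 pairs within the rod pathway (left: P14 to P28 against P4 to P10) and 9 pairs of a rod gene and its cone counterpart (right: P14 to P28 against P0 to P4). The groups do not overlap for the 3 ratios with Gnat1 on top in the left panel, and they overlap for Sag over Arr3.

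Levels of different genes were compared only per length, from the deposited transcript counts divided by transcript length and scaled to the same total in every library, as TPM is. On this scale the order at P28 was Gnat1 (11480 ± 260, SD, n = 2), Gnb1 (5516 ± 97.5), Sag (4913 ± 566), Pde6g (3624 ± 153), Pde6b (1804 ± 159), Gngt1 (1402 ± 205), Pde6a (1141 ± 13.6), Cnga1 (886 ± 40.1) and Cngb1 (626 ± 31.8). The neighbours nearest to each other for their spread were Gnb1 and Sag, and Gngt1 and Pde6a, and with 2 libraries each these are not shown to differ. No neighbours in this order were tested against each other, so the order is a description. The place of Gnb1 depends on the transcripts counted: on leading transcripts alone it stood below Sag and Pde6g in both P28 libraries. Gnat1 per Gnb1 was 2.07 and 2.09 in the P28 libraries, against 0.0303 and 0.0315 in the P6 libraries. On leading transcripts alone Gnat1 per Gnb1 was 3.02 at P28 and 0.0308 at P6. Pde6a per Pde6b was 0.680 and 0.590 at P28, against 0.0610 and 0.0639 at P6. Cnga1 per Cngb1 was 1.42 and 1.41 at P28, against 0.738 and 0.704 at P6. On leading transcripts alone Cnga1 per Cngb1 was 2.77 ± 0.0844 at P28, against 1.82 ± 0.194 at P6 (SD, n = 2), so which subunit was higher at P6 depends on the transcripts counted. Gnat1 per Gnat2 was 33.9 and 35.3 at P28, against 0.597 and 0.594 at P6, and on leading transcripts alone it was 60.1 at P28 and 0.732 at P6. The gene counts and the summed transcript counts of a gene differed in these files: at P28 Gnat1 had 211510 and 219770 gene counts, against 359920 and 381070 summed transcript counts.

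The transcript table shows which RNAs made up the low embryonic counts. Each gene has 1 leading transcript with the most counts over all libraries, a protein-coding one in all 9 cases, which held 64.3% (Cngb1) to 99.7% (Pde6a) of the gene's counts. For Sag the leading transcript, of 1719 bases, held 1.12% of the gene's counts at E11, 2.77% at E16 and 78.4% at P0. Most embryonic Sag counts lay in its 8 other annotated transcripts, 5 of which are of the retained-intron class. The leading transcript of Gnat1 held 17.6% of its counts at E16, 13.1% at P0, 71.4% at P4 and 84.7% at P28. That of Pde6g held 34.2% at E16 and 72.3% at P0. The embryonic share was not low in every gene. For Gngt1 the leading transcript held 95.6% (E12) to 100% (E11 and E14) of the counts before birth. For Cngb1 it held 92.4% at E16 and less, 61.2%, at P0. For Gnb1 it held 74.8% at E16 and 76.7% at P0.

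At E12 the leading transcripts set the genes apart. Pde6a had 67.0 counts of its leading transcript at E12, against 0 at E11 and 0 at E14, and Pde6b had 61.6, against 0 and 0. Pde6g had 37.1, against 0 at E11 and 3.54 at E14. The higher Sag value at E12 held 0 counts of its leading transcript. For Gnat1, 34.6 counts at E12 were of the leading transcript, all but 0.0116 of them in the first library, and 377 were of its other transcripts.

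Between the postnatal groups the leading share changed in 2 of the 9 genes, in an exact permutation test of 6 libraries against 6 adjusted over the 9. For Gnb1 it was 73.1% ± 3.54 at P14 to P28, against 80.4% ± 0.993 at P4 to P10 (SD, difference -7.30 percentage points, adjusted p = 0.00974, exact). For Cngb1 it was 66.8% ± 3.48, against 57.5% ± 1.56 (difference 9.30, adjusted p = 0.00974, exact). In both genes the groups did not overlap. With age means as the units neither passed (adjusted p = 0.225), since 3 against 3 cannot give a p under 0.1. The shares of Gnat1 and Cnga1 differed by 5.82 and 7.76 percentage points with adjusted p = 0.102 each, and that of Cnga1 passed without the second P4 library (adjusted p = 0.039, exact).

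**Figure D5:**
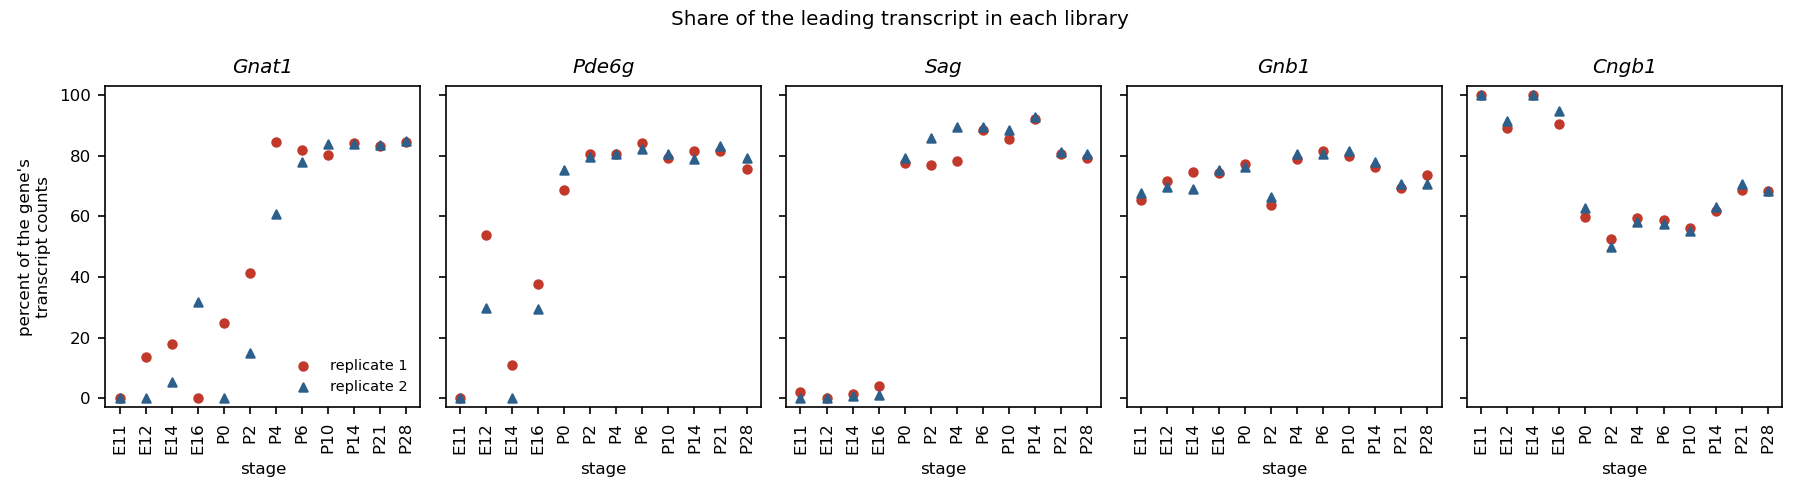
Percent of a gene's transcript counts in its leading transcript, by library and age, for Gnat1, Pde6g, Sag, Gnb1 and Cngb1, with circles and triangles for the 2 replicates. Sag is at 4.07% or less in the 8 libraries up to E16 and at 77.5% and 79.2% at P0.

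Other genes of the light response were counted in the same windows. Of 11 genes of recovery and calcium feedback, 2 rose and 3 fell at E16 vs E11 (13.6% and 9.11% of all genes tested), all 11 rose at P6 vs E16 (13.2%), and 10 of 11 rose at P28 vs P6 (24.7% called in either direction). The median log2 changes of the list in the 3 windows were 0.12, 6.27 and 3.31, against 0, 0.01 and 0.04 over all genes tested. Guca1b, a guanylate cyclase activator that senses calcium, fell at E16 vs E11 by 2.58 on the log2 scale (adjusted p = 5.13e-08, edgeR) and rose at P28 vs P6 by 7.77 ± 0.19 SE (adjusted p = 1.31e-14). Slc24a1 had 1615 CPM at P28, against 14.5 CPM at P6 (age means, log2 change 6.80, adjusted p = 2.34e-16). Pdc, phosducin, which binds transducin beta-gamma, was the 1 gene of the 11 not called at P28 vs P6. It had 21.8 CPM at E16, against 1 count in the E11 libraries together, and its late change, 0.58 on the log2 scale, did not reach 2-fold. Rcvrn had 74.7 CPM at P6, against 1 count in both E16 libraries together.

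Of the 8 cone counterparts, 7 rose at E16 vs E11, the window in which 2 of the 9 rod genes rose, and 6 rose at P6 vs E16 (13.6% and 13.2% of all genes tested). At P28 vs P6 4 of the 8 were called, 3 higher and 1 lower (24.7% of all genes tested in either direction). The list's median log2 changes in the 3 windows were 4.54, 2.22 and 0.43. Gnb3 had 55.6 CPM at E16, against 0.622 CPM at E11 (age means, log2 change 6.47, adjusted p = 2.83e-11, edgeR). Pde6c had 18.3 CPM at E16, against 1 count at E11. Arr3 had 36.02 CPM at P6, against 0.168 CPM at E16 (log2 change 7.71, adjusted p = 4.98e-12). Gngt2 fell at P28 vs P6 by 1.82 on the log2 scale (adjusted p = 7.59e-07).

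Of 4 genes for the folding and transport of these proteins, 2 rose at E16 vs E11 (13.6% of all genes tested), 4 at P6 vs E16 (13.2%) and 2 at P28 vs P6 (24.7% called in either direction). Aipl1, a chaperone the phosphodiesterase needs, had 5.46 CPM at E16, against 0.319 CPM at E11 (log2 change 4.08, adjusted p = 5.55e-11, edgeR). It had 658 CPM at P28, against 121 CPM at P6 (log2 change 2.45, adjusted p = 4.38e-11). Unc119, which binds the lipid of transducin alpha, rose at P28 vs P6 by 1.13 on the log2 scale (adjusted p = 1.99e-06).

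The 6 transcription factors known for photoreceptor fate were called higher at E16 than at E11 in 6 of 6 (13.6% of all genes tested), and 4 rose at P6 vs E16 (13.2%). Otx2, which drives photoreceptor fate, had 114 CPM at E11, 264 CPM at E16, 1034 CPM at P6 and 226 CPM at P28. Crx had 12.7, 141, 1382 and 1060 CPM at the same ages. Nrl, which drives rod over cone fate, had 0, 4.32, 920 and 1352 CPM, and Nr2e3, which represses cone genes in rods, had 0.0343, 0.396, 916 and 499 CPM. Prdm1 had 2.19, 171, 203 and 22.2 CPM, and Rorb had 132, 732, 489 and 534 CPM. At P28 vs P6 Otx2 and Prdm1 fell, by 2.19 and 3.19 on the log2 scale (adjusted p = 8.07e-07 and 5.08e-10, edgeR). The late change of Nrl, 0.56 on the log2 scale, did not reach 2-fold.

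Among 10284 other genes with a highest age mean of at least 20 CPM, the 8 whose 12 age means correlated best with the mean profile of the 9 were Impg1, Rdh8, Rcvrn, Gucy2e, Ndrg3, Pde8b, Aldoc and Fyco1, with Pearson's r of 0.9963 to 0.9908. These correlations are descriptive, over 12 age means of the same libraries. Of the 9 genes, Sag was most like the mean of the other 8 (r = 0.9898) and Gnat1 least (0.8899), followed by Gnb1 (0.9275). Gnb1 alone was most like Sebox (0.9953), Herc3, Slc25a35 and Got1 (0.9935). In the authors' deposited table, 6 of the 9 genes are in cluster 18, which has 470 genes. Gnat1, Gnb1 and Pde6a are in cluster 22 of the authors' deposited table, which has 860 of its 12718 genes.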

How the data were processed

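Directional libraries of polyadenylated RNA were made from 24 retina samples, with 100 ng as input for E11 and E12 samples and 1 µg for later ages, per the labels' protocols. The authors deposited estimated counts per gene and per transcript. The build GRCm38.p5 and the tools edgeR 3.13.9 and kallisto 0.42.4 are named, per the submitters' processing notes, without their roles. The step by which transcript estimates became gene estimates is not stated there, and the gene estimates differ from transcript sums. The deposited cluster numbers were copied as they are, and the deposited normalized CPM were not used.

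Gene counts were rounded and fitted with edgeR 4.0.16 (R 4.3.3), with 1 coefficient per age, TMM factors, filterByExpr (minimum count 10) and the quasi-likelihood test with Benjamini-Hochberg adjustment over 21858 genes, on 12 residual and 4.69 prior degrees of freedom. SE is the log2 change divided by the root of F. CPM uses TMM-scaled library sizes, and log2 ratios a prior count of 2. The test was checked on simulated data. Counting intervals are at 95% and cover counting error only. Replicate libraries differed by more than sampling noise (chi-square per degree of freedom 9.72 to 64.2), so none was counted as a duplicate. Alternatives were RLE and plain library size, other filters, DESeq2 1.42.0, glmTreat, no fold threshold, summed transcript counts, only the compared ages, a replicate block and leaving out each library. The genes and lists were chosen with earlier results of these data known. Named outside the 9 were up to 3 genes of each list with the largest change in a window, all 6 transcription factors, Gnb2 and Gnb4, and the genes most alike in profile. Rcvrn, Slc24a1, Pdc, Gucy2e, Rgs9bp, Nrl, Nr2e3, Prdm1 and Crx at E12 were named after their values were seen. So were the late changes of Pdc, Gnb3, Gnb5 and Nrl, and the change of Arr3 at P21 vs P14. The summed level of the retina marker list is not reported here.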

Additional observations from a re-analysis of the deposited data

Results flagged for a closer look

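In 2 of 50 groups of 6 libraries examined for ratios and leading shares, 1 library stood apart from the others by Dixon's criterion, and chance flags about 1 group in 20. The share of the leading Gnat1 transcript was lowest at 60.7% in the second P4 library, where the other 5 libraries of P4 to P10 had 78.0% to 84.6%. The share of the leading Sag transcript was lowest at 78.1% in the first P4 library, where the other 5 had 85.6% to 89.4%.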

How the results depend on the processing

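Of 76 member changes called, 0 reversed in 2565 refits and 62 refits ended a call, 24 of them of Cnga1 at E12 vs E11 and 24 with glmTreat, 1 in both. Counts of members called higher moved as follows. With glmTreat they were 1 at E16 vs E11, 2 at E12 vs E11, 0 at E16 vs E14, 2 at each of P2 vs P0, P6 vs P4 and P10 vs P6, and 0 at P14 vs P10 and P21 vs P14. With no fold threshold they were 2 at E16 vs E14, 3 at P14 vs P10, 6 at P21 vs P14 (1 lower) and 2 at P28 vs P21. Summed transcript counts gave 1 at E16 vs E11, library size alone gave 2 at E16 vs E14, and the compared ages alone gave 0 at E12 vs E11. Without 1 library the count at E16 vs E14 was 1 to 2. With age means as the units no ratio or share passed; the differences were as reported: 4.77 (Gnat1/Gnb1), 4.52 (Gnat1/Gngt1), 4.84 (Gnat1/Pde6b), 2.86 (Pde6a/Pde6b), 0.43 (Pde6g/Pde6b), 0.95 (Cnga1/Cngb1) and -4.67 (Sag/Gnat1), then 7.45 (Gnat1/Gnat2), 2.30 (Gnb1/Gnb3), 6.97 (Gngt1/Gngt2), 5.92 (Pde6a/Pde6c), 1.83 (Pde6b/Pde6c), 2.33 (Pde6g/Pde6h), 6.996 (Cnga1/Cnga3) and 4.92 (Cngb1/Cngb3), with leading shares of -7.30 (Gnb1) and 9.30 (Cngb1). Without 1 library Pde6g/Pde6b was 0.36 to 0.52, Sag/Arr3 -1.11 to -0.58, and the leading share 6.27 to 9.64 for Cnga1 (passing without the second P4 library) and -0.46 to 1.46 for Pde6b. The share of Pde6a turned to -0.51 as a log2 ratio.

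Uncalled changes that turned were, at E16 vs E11, Gnb1 at -0.029 (RLE and DESeq2) and -0.23 to 0.32 without 1 library, Pde6b at 0.26 (summed transcripts) and -1.10 to 0.44, Cnga1 at 0.007 (library size) and -2.36 to 2.26, and, at P21 vs P14, Cnga1 at 0.071 (summed transcripts). A further 31 neighbouring-age changes of the 9 genes, called under no setting and not given in the text, turned in 31 of 1050 refits. Counts over all genes moved by factors of 0.0468 to 0.644 with glmTreat, 1.14 to 8.07 with no fold threshold, 0.00117 to 1.92 with the compared ages only, 1.02 to 2.24 with no filter, 0.781 to 1.5 with library size alone, 0.473 to 1.2 with summed transcripts and 0.351 to 1.8 without 1 library. The causes were not tested. Same-numbered libraries did not deviate together (correlations of -0.0568 to 0.127 over 66 pairs of ages), and a replicate block moved those counts by factors of 0.971 to 1.02 and left 9, 9 and 8 members called over the ages, at P6 vs E16 and at P28 vs P6. Depth limits Pde6b and Cnga1 before birth, with 4 counts or fewer at E11, E14 and E16.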
